A study of Mus musculus with 18 samples.

Results

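The level of 10 astrocyte marker genes was followed through RNA pulled down with tagged ribosomes from mouse entorhinal cortex neurons. The genes were Slc1a2, Slc1a3, Glul, Atp1b2, Aqp4, Gja1, Gfap, S100b, Aldoc and Aldh1l1. They were chosen by name as a gauge of RNA from cells without the ribosome tag, and all 10 were found by their Ensembl identifiers among the 39017 identifiers of the gene count tables. The study asked how a change of Ptbp1, an RNA-binding protein that controls exon inclusion, alters layer II neurons of the entorhinal cortex. The 18 libraries came from 2 experiments, with 1 mouse per library and the entorhinal cortices of both sides pooled. In the silencing experiment 4 mice carried a vector with an shRNA against Ptbp1 and 5 mice a vector with a scrambled shRNA. In the overexpression experiment 5 mice carried a Ptbp1 vector and 4 mice a control vector. Every vector also encoded mCherry, and per the labels the authors left out 1 mouse in each experiment for lack of mCherry reads. All mice carry an injected vector, so no group is untreated. All 18 libraries carry hippocampus as tissue label, although title and design speak of the entorhinal cortex. The sources used here do not give strain, sex, age or the driver of the ribosome tag.

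Translating ribosome affinity purification (TRAP) uses a tag on a ribosomal protein in chosen cells to pull down their ribosomes with the mRNA they carry. RNA of other cells can stick to the beads, so transcripts of cells without the tag are commonly used to gauge the purity of such a preparation. Astrocytes clear glutamate and potassium from around synapses, turn glutamate into glutamine, move water at vessel walls and pass small molecules between each other through gap junctions. The genes followed here serve these tasks, but they are not equally specific. Slc1a2 and Atp1b2 transcripts are also made by some neurons, while Gfap, Aqp4, Gja1 and Aldh1l1 mark astrocytes more strictly among the cells of the cortex. The genes lie on 7 chromosomes of mm10 in the GENCODE annotation. Atp1b2 (chr11:69599736-69605942), Gfap (chr11:102887336-102900912) and Slc1a3 (chr15:8634124-8710764) are on the minus strand, as is Aqp4 on chromosome 18. Slc1a2 (chr2:102658659-102790784), Aldh1l1 (chr6:90486427-90600203), S100b (chr10:76253853-76261159), Gja1 (chr10:56377330-56402513), Aldoc (chr11:78322968-78327781) and Glul (chr1:153899944-153909723) are on the plus strand. In bulk RNA of this kind, fewer cells of a type and less RNA per cell cannot be told apart.

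Depth ran between 34339355 and 46544178 gene counts in silencing and between 18288627 and 39056655 in overexpression. Although sequenced more deeply, the silencing libraries had a count for fewer genes, 14841 to 17908, than the overexpression libraries, 19893 to 21456. Ptbp1 itself was at 6.57, 0.101, 0.588 and 13.1 CPM (gene counts relative to the scaled library size) in libraries labelled Ptbp1 shRNA, against 3.38, 0.930, 6.72, 0.349 and 9.11 CPM with scrambled shRNA. These groups overlap throughout, and the difference of -0.18 on the log2(CPM + 0.5) scale had a two-sided p of 0.881 when all splits were enumerated (exact permutation). Ptbp1 RNA therefore did not check the silencing labels, and those libraries are named by label. With the Ptbp1 vector it was at 136, 143, 158, 129 and 118 CPM, against 17.2, 13.5, 9.96 and 12.3 CPM with the control vector. That difference was 3.34 on the same scale, with the smallest p these groups allow (exact two-sided permutation test, p = 0.00794). The summed level of 12 neuron markers ran from 34455 to 68270 CPM in libraries labelled Ptbp1 shRNA and from 61937 to 77961 CPM with scrambled shRNA. It ran from 17549 to 22393 CPM with Ptbp1 overexpression and from 21382 to 25976 CPM with the control vector. CPM are scaled within each experiment, so levels set across the experiments share no scale.

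Coverage of the astrocyte genes along their exons separated the experiments. The authors' second count, per exon bin, splits each gene into numbered stretches where its transcripts differ. The 10 genes have 83 bins that averaged 5 counts or more over all 18 libraries, some of which were kept through the overexpression libraries alone. All or nearly all of them had a count in each library with Ptbp1 overexpression (81 to 83) and with the control vector (81 to 83). Only 50 to 66 of the 83 had a count in libraries labelled Ptbp1 shRNA, and 45 to 71 with scrambled shRNA. Gfap, the intermediate filament protein of astrocytes, is an example, with counts in 3, 4, 1 and 7 of its 11 bins in libraries labelled Ptbp1 shRNA and in 6, 6, 10, 1 and 1 with scrambled shRNA. Each library of the overexpression experiment had counts in 10 or 11 of these bins. The silencing groups do not separate by either measure. With bins kept instead on the silencing libraries alone, a choice made after seeing the data, 68 bins remained. Of these 49 to 56 had a count in libraries labelled Ptbp1 shRNA and 43 to 62 with scrambled shRNA, against 66 to 68 in each library of the overexpression experiment. For Gfap, scrambled replicate 3 reached the range of the overexpression libraries. Taking all genes, between 1.24% and 8.30% of the bins that averaged 50 counts or more stood at 0 in a silencing library, and between 0.0213% and 0.0551% in an overexpression library. That threshold is higher than the 5 counts used above. Of the 42 bins of the 10 genes that reached it, 2.38% to 16.7% stood at 0 in a silencing library and 0% in each overexpression library. Over all genes, the least even libraries were replicate 2 of the group labelled Ptbp1 shRNA and replicate 5 of the scrambled group.

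The junctions into 4 coding bins serve as examples. Each is written 5′ to 3′ as cDNA, with the last 15 bases of the preceding exon in lower case and the first 15 bases of the bin in capitals (GENCODE M21 transcripts, mm10). They were picked after the values were seen, as bins of 30 to 150 bases with a count in every overexpression library and a 0 in the most silencing libraries, which for Atp1b2 was none.
Gfap bin 004: gggcgaagaaaaccgCATCACCATTCCTGT
Aldoc bin 006: actggctgagtatagACAACTGTCATCATG
Slc1a2 bin 031: atagatgagtgcaagTCTCTTCATTATGTG
Atp1b2 bin 005: acttgtgttggcaagAGAGATGAAGATGCT
The Gfap bin lies at chr11:102891911-102891954 on the minus strand. It had 109 counts in replicate 4 of the group labelled Ptbp1 shRNA and 148 in scrambled replicate 3, and 0 in the other 7 silencing libraries, against 2 to 19 counts in each overexpression library. The Aldoc bin, at chr11:78324390-78324513 on the plus strand, had 187 counts in replicate 2 labelled Ptbp1 shRNA, 3 and 1 in scrambled replicates 1 and 2, and 0 in the remaining 6. It had 51 to 156 counts in the overexpression experiment. The Slc1a2 bin, at chr2:102780717-102780787 on the plus strand, had 2, 211, 0 and 0 counts in libraries labelled Ptbp1 shRNA, against 22, 40, 22, 60 and 3 with scrambled shRNA, and 4 to 13 in the overexpression experiment. The Atp1b2 bin, at chr11:69601525-69601623 on the minus strand, was the exception, with 190 to 573 counts in libraries labelled Ptbp1 shRNA, 608 to 2097 with scrambled shRNA and 194 to 408 in the overexpression experiment. The 0s in silencing and the counts in every overexpression library follow from how the bins were picked, so they are examples and no result. In the Gfap and Aldoc bins, single silencing libraries stood above every overexpression library.

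**Figure D1:**
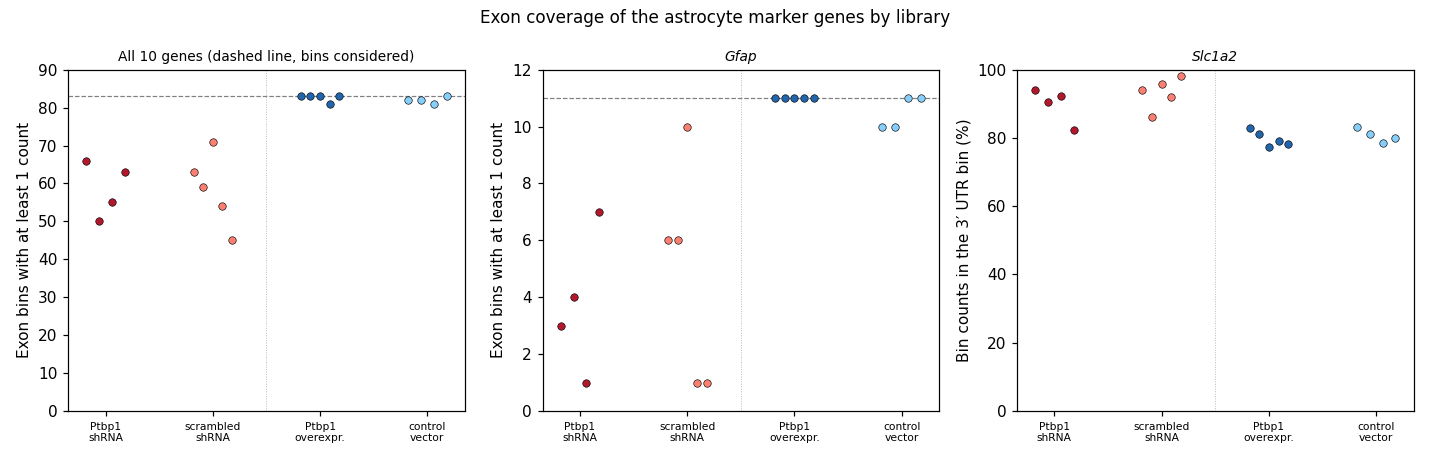
Exon bins with at least 1 count in each library for all 10 astrocyte genes (left; the dashed line marks the 83 bins considered) and for Gfap (middle; 11 bins), and the percent of Slc1a2 bin counts in its long 3′ UTR bin (right), 1 point per library and 4 groups on the horizontal axis. Every silencing library lies below every overexpression library in the left panel.

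The long 3′ UTR bin of Slc1a2, 9041 bases, held most of the gene's counts in every library. It held 93.9%, 90.4%, 92.2% and 82.5% of them in libraries labelled Ptbp1 shRNA, against 93.9%, 86.1%, 95.9%, 92.1% and 98.2% with scrambled shRNA. With Ptbp1 overexpression it held 77.3% to 83.1%, against 78.5% to 83.1% with the control vector. Coverage of the gene thus leaned further to its 3′ end in 8 of the 9 silencing libraries than in any overexpression library. The exception was replicate 4 labelled Ptbp1 shRNA. Atp1b2, the other gene measured in this way, did not lean to 1 side. Its 3′ UTR bins held 11.4% to 73.0% of its counts in libraries labelled Ptbp1 shRNA and 19.1% to 39.5% with scrambled shRNA. They held 20.1% to 25.2% with Ptbp1 overexpression and 22.1% to 27.5% with the control vector, so silencing libraries lay on both sides. No depth correction was applied to these shares.

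Slc1a2 (GLT-1), a transporter that takes up glutamate, had the most counts of the 10 genes in every library. It was at 303, 776, 468 and 671 CPM in libraries labelled Ptbp1 shRNA, against 618, 829.9, 812, 995 and 993 CPM with scrambled shRNA. The groups overlap, and the log2 fold change was -0.62 (SE 0.27, 95% interval -1.19 to -0.04; edgeR quasi-likelihood test, adjusted p = 0.416). It was at 258, 439, 398, 579 and 619.8 CPM with Ptbp1 overexpression, against 420.2, 582, 536 and 650.0 CPM with the control vector. Replicate 1 of the overexpression group was the lowest of the 9, and the log2 fold change was -0.25 (SE 0.21, interval -0.71 to 0.21, adjusted p = 0.974). Slc1a3 (GLAST), the other main astrocyte glutamate transporter, was at a small fraction of that level per kilobase of exon. It was at 0.318, 0.855, 3.33 and 8.94 CPM in libraries labelled Ptbp1 shRNA, against 0.390, 11.4, 0.674, 15.4 and 0.584 CPM with scrambled shRNA. Either group thus held libraries under 1 CPM and libraries near or above 9 CPM, and the log2 fold change was -0.76 (interval -3.60 to 2.08). It was even in the overexpression experiment, at 4.33 to 6.08 CPM with Ptbp1 overexpression and 4.51 to 7.86 CPM with the control vector (log2 fold change -0.13, interval -0.57 to 0.30).

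Glul encodes glutamine synthetase, which turns the glutamate taken up into glutamine. It was at 51.7, 58.8, 36.5 and 22.6 CPM in libraries labelled Ptbp1 shRNA, against 40.0, 21.7, 55.7, 69.3 and 52.5 CPM with scrambled shRNA. The groups overlap fully, with a log2 fold change of -0.17 (interval -1.06 to 0.71). It was at 62.7, 108, 83.8, 52.2 and 48.9 CPM with Ptbp1 overexpression, against 51.4, 76.9, 59.3 and 66.5 CPM with the control vector (log2 fold change 0.16, interval -0.30 to 0.62). The highest and the lowest of these 9 libraries were both overexpression libraries. Glul shares 116 exonic bases with Teddm2 on the other strand, Slc1a2 shares 189 with Gm13872, and Aldh1l1 shares 499 with Gm15756. Since the strand setting of the count is not given, the values of these genes are uncertain to that extent. On the same strand Aldh1l1 shares 105 exonic bases with Gm45901 and Glul shares 93 with Mir8114, whatever that setting.

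Atp1b2 encodes the beta-2 subunit of the sodium-potassium pump, an adhesion molecule first described on glia. It was at 77.6, 183, 85.2 and 79.0 CPM in libraries labelled Ptbp1 shRNA, against 239, 355, 296, 337 and 289 CPM with scrambled shRNA. It was the one gene of the 10 whose silencing groups did not overlap, where 4.84% of all tested genes had groups apart and 2.45% had them apart in this direction. The mean was 106 ± 51.2 CPM in libraries labelled Ptbp1 shRNA and 303 ± 45.4 CPM with scrambled shRNA (SD, n = 4 and 5). The log2 fold change was -1.51 (SE 0.29, interval -2.15 to -0.88), which missed the threshold after adjustment over 14656 genes (edgeR adjusted p = 0.0758). The call depended on the method and on 1 library. Adjusted p was 0.000398 with DESeq2, 0.0193 with limma voom and quality weights and 0.00193 with 1 spread shared by all 18 libraries, and it was 0.0419 in edgeR (log2 fold change -1.92) without replicate 2 labelled Ptbp1 shRNA, the least evenly covered library. The run without that library called 1 of 15281 genes. Without both least even libraries the log2 fold change was -1.93 and the edgeR adjusted p 0.0653. The summed neuron markers were likewise lower in 3 of the 4 libraries labelled Ptbp1 shRNA than in every scrambled library. The summed 8 markers of layer II entorhinal neurons were lower in all 4, at 1003 to 1537 CPM against 1797 to 2406 CPM. Of these 8 genes, 6 had a log2 fold change below 0 and 2 above. The part of either list in the Atp1b2 difference was not tested. In the overexpression experiment Atp1b2 was at 86.3, 117, 117, 173 and 169 CPM with Ptbp1 overexpression, against 122, 157, 145 and 152 CPM with the control vector. Overexpression replicates 1 to 3 lay below all controls and replicates 4 and 5 above all of them, with a log2 fold change of -0.12 (interval -0.50 to 0.26).

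Aqp4, the water channel of astrocyte endfeet, was at 6.63, 4.13, 21.4 and 0.288 CPM in libraries labelled Ptbp1 shRNA, against 2.34, 1.17, 12.1, 13.1 and 6.32 CPM with scrambled shRNA. Its libraries within the group labelled Ptbp1 shRNA spanned 11 to 762 counts. The log2 fold change was 0.21 (interval -2.01 to 2.43). With Ptbp1 overexpression it was at 4.97, 6.73, 3.80, 3.14 and 2.47 CPM, against 8.01, 5.15, 2.95 and 4.15 CPM with the control vector (log2 fold change -0.26, interval -0.95 to 0.44). Gja1 encodes connexin 43, which forms the gap junctions between astrocytes. It was at 0.805, 0, 0.140 and 0.209 CPM in libraries labelled Ptbp1 shRNA, against 0.182, 7.20, 0.860, 1.33 and 0 CPM with scrambled shRNA. Scrambled replicate 2 held 302 of its counts, and the log2 fold change of -2.71 had an interval from -6.62 to 1.19. It was at 1.12 to 3.80 CPM with Ptbp1 overexpression and 1.89 to 3.63 CPM with the control vector (log2 fold change -0.36, interval -1.21 to 0.48).

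Gfap was at 5.57, 7.82, 3.81 and 7.61 CPM in libraries labelled Ptbp1 shRNA, against 1.17, 1.81, 10.8, 6.02 and 3.15 CPM with scrambled shRNA (log2 fold change 0.44, interval -1.37 to 2.24). It was at 11.01, 14.1, 21.3, 7.40 and 8.66 CPM with Ptbp1 overexpression, against 6.78, 7.84, 8.62 and 11.1 CPM with the control vector. Overexpression replicates 2 and 3 stood above all controls, and the log2 fold change was 0.54 (SE 0.27, interval -0.05 to 1.13; edgeR adjusted p = 0.974). S100b encodes a calcium-binding protein made by astrocytes and also by some oligodendrocytes. It was at 3.50, 0.906, 1.04 and 0 CPM in libraries labelled Ptbp1 shRNA, against 4.55, 7.78, 3.93, 1.72 and 3.83 CPM with scrambled shRNA (log2 fold change -1.68, interval -4.48 to 1.12). It was at 27.1, 15.6, 16.2, 16.2 and 13.6 CPM with Ptbp1 overexpression, against 13.6, 8.20, 10.1 and 14.5 CPM with the control vector. Replicate 1 of the overexpression group was the highest, while replicate 5 lay within the control range. The log2 fold change of 0.62 (SE 0.22, interval 0.14 to 1.09) had an edgeR adjusted p of 0.917.

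Aldoc encodes aldolase C, the brain form of this glycolytic enzyme. It was at 4.56, 21.8, 1.82 and 3.11 CPM in libraries labelled Ptbp1 shRNA, against 8.79, 2.93, 5.81, 5.67 and 5.38 CPM with scrambled shRNA. Replicate 2 labelled Ptbp1 shRNA alone stood above the scrambled range. The log2 fold change was 0.45 (interval -1.33 to 2.24), and it was -0.86 without that library. It was at 52.7, 95.8, 74.2, 41.5 and 45.4 CPM with Ptbp1 overexpression, against 38.3, 65.8, 52.3 and 56.4 CPM with the control vector (log2 fold change 0.22, interval -0.28 to 0.72). Aldh1l1, a folate-metabolism enzyme and a widely used pan-astrocyte marker, had 110, 0, 4 and 0 counts in libraries labelled Ptbp1 shRNA, against 1, 0, 0, 0 and 0 with scrambled shRNA. A library at 0 allows up to 3 counts, at most 0.0973 CPM at these depths and by counting error only. The gene failed the filter on low counts in silencing and was not tested there. It was at 1.83, 1.35, 5.37, 1.20 and 3.67 CPM with Ptbp1 overexpression, against 1.82, 2.81, 0.334 and 4.87 CPM with the control vector (log2 fold change 0.10, interval -1.18 to 1.38).

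**Figure D2:**
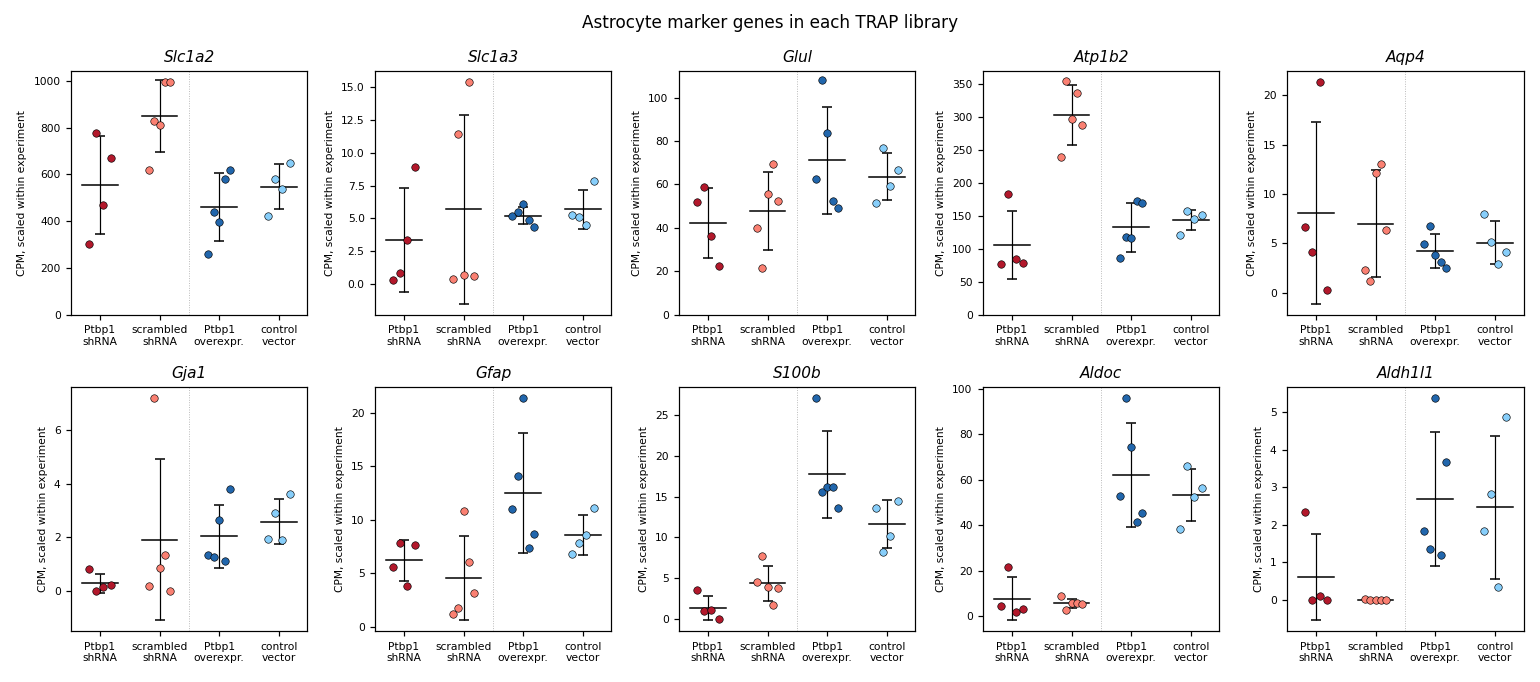
Level of each astrocyte gene in CPM (vertical axes, own scale per gene, scaled within each experiment) in the 4 groups, with 1 point per library and lines at the mean ± SD. The Atp1b2 points labelled Ptbp1 shRNA, 77.6 to 183 CPM, all lie under the scrambled points, 239 to 355 CPM, and no other gene's silencing groups are apart.

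No gene of the 10 passed the test in either experiment. In silencing 9 of the 10 passed the filter on low counts and 0 of these were called, where 0 of 14656 genes (0%) were called by edgeR. At an unadjusted p under 0.05 stood 2 of the 9, Atp1b2 and Slc1a2, both with a negative fold change, against 11.2% of all genes tested and 5.42% in that direction. Of all genes 434 were called by DESeq2 and 84 by limma voom with quality weights, and Atp1b2 alone of the 10 was among each. The median log2 fold change of the 9 was -0.62, with 6 below 0, where the median of all genes was 0.03 and 48.8% were below 0. In overexpression all 10 passed the filter and 0 were called, where 0.0425% of 16480 genes were. S100b alone of the 10 had an unadjusted p under 0.05, against 4.78% of all genes tested, and 0 of the 10 had groups that did not overlap, against 1.81%. The 10 genes split into 5 above and 5 below 0, with a median log2 fold change of -0.01, where 50% of all genes were below 0. The intervals were far wider in silencing: that of Slc1a3 spanned -3.60 to 2.08 there and -0.57 to 0.30 in overexpression.

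**Figure D3:**
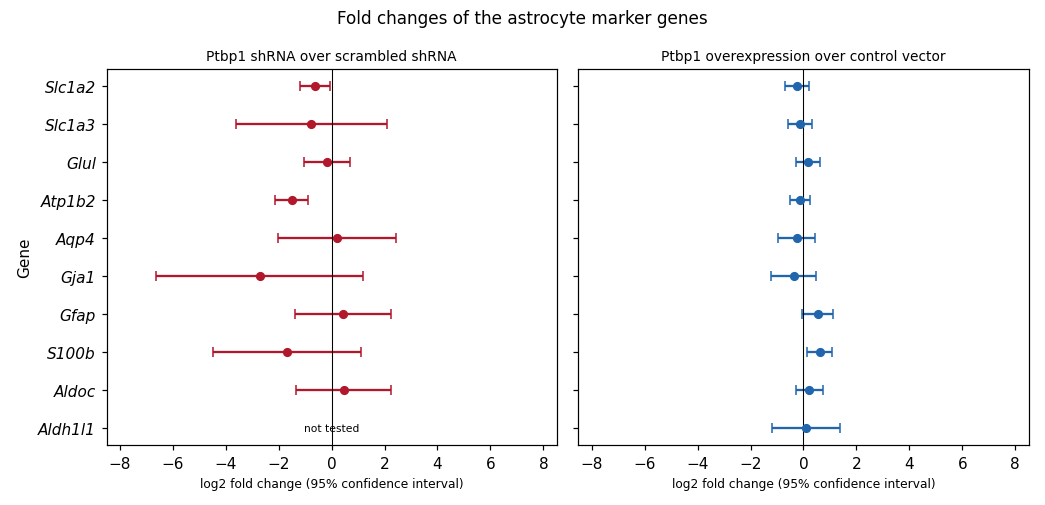
Log2 fold changes of the astrocyte genes (points) with 95% confidence intervals (bars) for Ptbp1 shRNA over scrambled shRNA (left) and Ptbp1 overexpression over control vector (right). In silencing the intervals of Atp1b2 and Slc1a2 lie below 0 before adjustment for multiple tests, and Aldh1l1 was not tested.

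The fold change of a gene in overexpression minus that in silencing was tested in 1 fit over all 18 libraries. Of the 10 genes 0 were called, where 0.225% of 17779 genes were. Atp1b2 came nearest, with a difference of 1.40 (SE 0.35, interval 0.67 to 2.13, adjusted p = 0.0857). Without replicate 2 labelled Ptbp1 shRNA it was 1.80 (edgeR adjusted p = 0.00782), and DESeq2 gave an adjusted p of 0.0138. These runs called 124 of 18220 and 667 of 17779 genes. The remaining 9 of the 10 had adjusted p values of 0.167 or more in the main fit.

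Summed over the 10 genes without regard to their length, the level was 731 ± 255 CPM in libraries labelled Ptbp1 shRNA and 1230.2 ± 201 CPM with scrambled shRNA (SD, n = 4 and 5). It was 769 ± 161 CPM with Ptbp1 overexpression and 844 ± 132 CPM with the control vector (SD, n = 5 and 4). Most of the sum was Slc1a2 and Atp1b2. Together they made up 83.5% to 94.6% of it in libraries labelled Ptbp1 shRNA, 92.2% to 95.6% with scrambled shRNA, 67.4% to 85.8% with Ptbp1 overexpression and 80.9% to 82.9% with the control vector. The overexpression group split here, with 67.4%, 69.2% and 70.7% in replicates 1 to 3 and 85.5% and 85.8% in replicates 4 and 5. The control vector libraries lay between. This split was seen after the values were known and its cause was not tested. The other 8 genes summed to 70.1 ± 21.4 CPM in libraries labelled Ptbp1 shRNA and 77.1 ± 24.4 CPM with scrambled shRNA. They summed to 177 ± 52.6 CPM with Ptbp1 overexpression and 153 ± 22.8 CPM with the control vector. Both pairs of means differ by less than the SD of the group labelled Ptbp1 shRNA or Ptbp1 overexpression. On the common scaling of all 18 libraries, the 8 summed to 51.0 to 134.7 CPM in the silencing libraries and to 106.4 to 210.6 CPM in the overexpression libraries, so the experiments overlap. In all, the 10 genes took 0.0533% to 0.142% of the gene counts of a silencing library and 0.0538% to 0.0975% of an overexpression library.

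**Figure D4:**
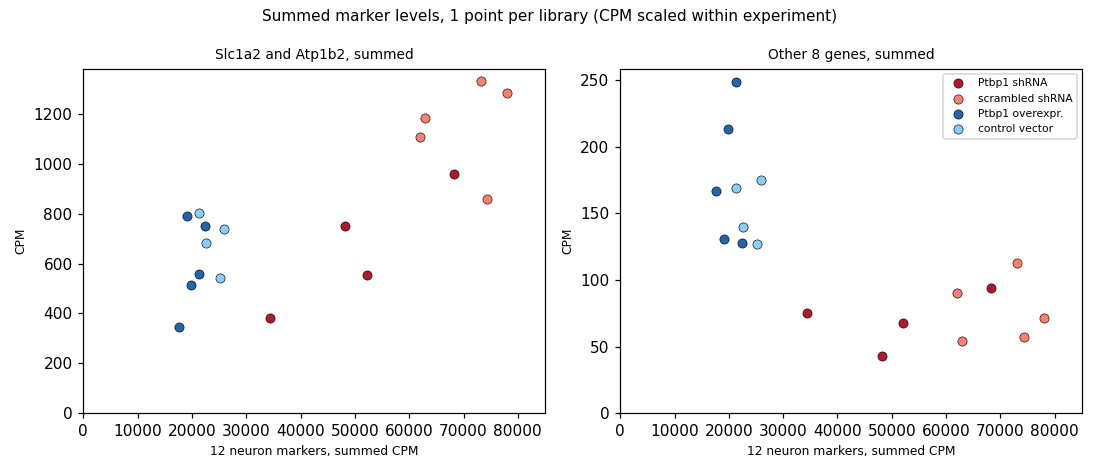
Summed CPM of Slc1a2 and Atp1b2 (left) and of the other 8 astrocyte genes (right) against the summed CPM of 12 neuron markers, with 1 point per library, coloured by group and scaled within each experiment. In 3 of the 4 libraries labelled Ptbp1 shRNA both the sum of Slc1a2 and Atp1b2 and the neuron markers lie below every scrambled library, and the scale is not shared between experiments.

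Per kilobase of exon, Slc1a2 and Atp1b2 had the highest mean levels of the 10 genes in every group. Slc1a2 averaged 42.2 ± 16.0 CPM per kb in libraries labelled Ptbp1 shRNA, 64.7 ± 11.9 with scrambled shRNA, 34.9 ± 11.1 with Ptbp1 overexpression and 41.7 ± 7.36 with the control vector. Atp1b2 averaged 26.0 ± 12.5, 74.2 ± 11.1, 32.4 ± 9.14 and 35.2 ± 3.82 CPM per kb in the same order of groups. In libraries labelled Ptbp1 shRNA Slc1a2 was above Atp1b2 in all 4, and the means differed by more than either SD. In each of the other groups the means of the pair differed by less than the larger SD. Both ranked between percentile 87.9 and percentile 95.9 of the genes ranked (14403 in silencing, 16174 in overexpression). Glul came next in each group, at 12.8 ± 4.86, 14.4 ± 5.41, 21.4 ± 7.43 and 19.1 ± 3.26 CPM per kb in that order. Aldoc followed closely in the overexpression experiment, at 19.0 ± 6.98 CPM per kb with Ptbp1 overexpression and 16.3 ± 3.50 with the control vector, which is within the spread of Glul. In silencing it was at 2.40 ± 2.88 CPM per kb labelled Ptbp1 shRNA and 1.75 ± 0.638 with scrambled shRNA. S100b was at 0.916 ± 1.01 and 2.94 ± 1.47 CPM per kb in the silencing groups and 11.96 ± 3.60 and 7.82 ± 1.99 in the overexpression groups. Gfap, Aqp4, Slc1a3 and Aldh1l1 lay at 2.96 CPM per kb or less in each group, and neighbours among them did not differ beyond their spread except where Gfap led in the overexpression experiment. Gja1 was near the bottom of the ranking, at percentile 0.424 in libraries labelled Ptbp1 shRNA, 5.14 with scrambled shRNA, 5.06 with Ptbp1 overexpression and 7.80 with the control vector. These ranks divide by 10257 exonic bases of GENCODE M21, while the 2 deposited exon bins of Gja1 span 189 and 2882 bases. On the shorter length its level per kilobase would be higher, so its rank depends on the length taken.

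The scrambled and control vector groups, which belong to different experiments, differed in 4 of the 10 genes, where 35.8% of 17779 genes were called by edgeR, 18.4% higher and 17.3% lower. Experiment, vector and library evenness cannot be told apart in this contrast of scrambled shRNA over control vector, which was fitted over all 18 libraries on a common scaling. On that scaling Atp1b2 averaged 362 ± 54.1 CPM with scrambled shRNA and 120.4 ± 13.5 CPM with the control vector (SD, n = 5 and 4), a log2 fold change of 1.59 (SE 0.26, edgeR adjusted p = 7.16e-05). Slc1a2 averaged 1013 ± 182 CPM with scrambled shRNA and 458 ± 80.8 CPM with the control vector (log2 fold change 1.15, SE 0.26, adjusted p = 0.00183). With library size as the sole scaling the Slc1a2 value was 0.58 (adjusted p = 0.0595), and the median of all genes moved to -0.62, against -0.06 on the main scaling. Aldoc averaged 6.83 ± 2.51 CPM with scrambled shRNA and 44.6 ± 9.81 CPM with the control vector (log2 fold change -2.71, SE 0.55, adjusted p = 0.000698). Aldh1l1 had 1 count in all 5 scrambled libraries together and 234 in the 4 control vector libraries, 364-fold lower per count (95% counting interval 64.7 to 14434) and called at an adjusted p of 0.00194. The called genes thus went both ways, with Atp1b2 and Slc1a2 higher and Aldoc and Aldh1l1 lower with scrambled shRNA, and the groups of each did not overlap (background 38.8%). Gfap, Aqp4, Gja1, Slc1a3, S100b and Glul were not called, with adjusted p values from 0.393 to 0.968.

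Levels of the genes were also compared in pairs across the 9 libraries of each experiment, 90 pairs in all. Over the 9 overexpression libraries, Aldoc and Glul had r = 0.98 and rho = 0.95 on the log2(CPM + 0.5) scale (exact permutation p = 4.96e-05, adjusted over 90 pairs 0.00446; for rho p = 0.000353, adjusted 0.0317). Without the 2 libraries farthest from the median of Aldoc, r was 0.93. Slc1a2 and Atp1b2 had r = 0.96 and rho = 0.83 (exact permutation p = 0.000595, adjusted 0.0268; for rho p = 0.00827, adjusted 0.186), and r was 0.89 without the 2 farthest libraries. Both values pool the 2 groups of the experiment. The part that the split between overexpression replicates 1 to 3 and replicates 4 and 5 has in them was not tested. No other pair passed adjustment in that experiment, and 0 of 45 did in silencing. The nearest there was Slc1a2 with Aldh1l1, with r = -0.84 and rho = -0.84 (exact permutation p = 0.00198, adjusted 0.0595; for rho p = 0.00397, adjusted 0.179), and r was -0.64 without the 2 farthest libraries. Aldh1l1 failed the filter on low counts in silencing. It stood at 0 in 2 of the 4 libraries labelled Ptbp1 shRNA and in 4 of the 5 with scrambled shRNA. Its highest counts were 110 and 1 in these groups, so the value for this pair rests on few libraries. The groups hold 4 or 5 libraries each, too few for values within a group. Of all genes, those most like the mean log2 level of the 10 were Tifa, Plk2, Rprd1a and Klhdc8b and 1 identifier without a symbol in overexpression (r 0.90 to 0.97 over 9 libraries, 13762 genes compared). In silencing they were Rnf170, Pdss1, Gm9812, Trub1 and Gng3 (r 0.86 to 0.91, 11691 genes compared).

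Other genes of astrocytes and of the glutamate cycle, from lists that hold none of the 10, gave no call in either experiment. Of 40 further astrocyte genes, 25 were tested in silencing and 38 in overexpression, and 0 were called in either. They summed to 288 to 421 CPM in libraries labelled Ptbp1 shRNA and 221 to 442 CPM with scrambled shRNA, so the groups overlap. The sums were 397 to 525 CPM with Ptbp1 overexpression and 420 to 520 CPM with the control vector. The smallest p in silencing was that of Slc7a10, a transporter of small neutral amino acids, at 8.41 ± 4.78 CPM in libraries labelled Ptbp1 shRNA and 20.6 ± 12.6 CPM with scrambled shRNA (log2 fold change -1.29, edgeR adjusted p = 0.501). In overexpression it was that of Sox9, an astrocyte transcription factor, at 11.5 ± 4.39 CPM with Ptbp1 overexpression and 7.57 ± 1.29 CPM with the control vector (log2 fold change 0.61, edgeR adjusted p = 0.974). Of 23 genes of reactive astrocytes, 6 were tested in silencing and 10 in overexpression, with 0 called. They summed to 20.8 to 80.9 CPM in libraries labelled Ptbp1 shRNA and 10.2 to 26.5 CPM with scrambled shRNA. All libraries labelled Ptbp1 shRNA except replicate 2 lay above every scrambled library. Of the 23 genes, 8 to 17 and 14 to 20 stood at 0 in these libraries. The sums were 33.2 to 56.4 CPM with Ptbp1 overexpression and 32.8 to 45.9 CPM with the control vector. The 2 smallest p values in silencing were of genes with opposite signs. Stat3, a transcription factor of the reactive response, was at 36.6 ± 17.0 CPM in libraries labelled Ptbp1 shRNA and 8.73 ± 8.47 CPM with scrambled shRNA (log2 fold change 2.07, edgeR adjusted p = 0.249). B3gnt5, a glycosyltransferase, was at 0 to 0.0636 CPM in libraries labelled Ptbp1 shRNA and 0 to 4.75 CPM with scrambled shRNA (edgeR adjusted p = 0.250). Of 15 genes of the glutamate and glutamine cycle, 12 and 14 were tested, with 0 called. Between scrambled shRNA and control vector 12 of the 40 astrocyte genes were called, where 35.8% of all genes tested were. Higher with scrambled shRNA were Slc7a10 and Ttyh1, a chloride channel family member. Lower were Apoe, Cbs, Hes5, Lcat, Etnppl, Slc25a18, S1pr1, Gpr37l1, Clu and Mt3. Clu, the secreted chaperone clusterin, averaged 21.8 ± 8.06 CPM with scrambled shRNA and 41.3 ± 8.42 CPM with the control vector on the common scaling (log2 fold change -0.92, edgeR adjusted p = 0.0283). Apoe, the lipid carrier apolipoprotein E, averaged 0.125 ± 0.0912 CPM with scrambled shRNA and 8.33 ± 2.37 CPM with the control vector (edgeR adjusted p = 5.24e-05).

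No marker of other cells passed the test in either experiment, but many were too low to be tested. In silencing 3 of 10 microglia, 5 of 9 oligodendrocyte, 3 of 6 precursor, 3 of 8 vessel, 1 of 5 ependymal and choroid, 7 of 8 interneuron and 3 of 8 hippocampal markers were tested. The 10 microglia markers summed to 1.43 to 18.2 CPM in libraries labelled Ptbp1 shRNA, 7.52 to 26.3 with scrambled shRNA, 11.3 to 20.5 with Ptbp1 overexpression and 12.1 to 15.6 with the control vector. The 9 oligodendrocyte markers summed to 64.1 to 135, 87.4 to 134, 145 to 187 and 141 to 158 CPM in the same order of groups. The 6 markers of oligodendrocyte precursors summed to 1.67 to 29.8, 0.937 to 3.98, 9.06 to 21.3 and 7.97 to 14.3 CPM. The 8 vessel markers summed to 29.0 to 181, 16.1 to 73.6, 27.6 to 59.7 and 20.6 to 54.9 CPM, and 5 ependymal and choroid markers to at most 1.70, 16.2, 42.3 and 12.7 CPM. The 8 interneuron markers summed to 189 to 366, 293 to 370.0, 203 to 360.0 and 198 to 356 CPM. The 8 hippocampal markers summed to 2.65 to 13.7, 7.20 to 30.6, 21.2 to 24.6 and 15.7 to 31.0 CPM. The 8 markers of layer II entorhinal neurons summed to 1003 to 1537, 1797 to 2406, 876 to 1039 and 864 to 1017 CPM. The silencing groups did not overlap in the layer II sums. The layer II sums exceeded those of the hippocampal markers in every library, but the lists hold different genes, so the tissue label was not tested. The levels of different genes were summed without regard to length.

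No exon bin of the astrocyte genes passed the test of exon usage, which sets a bin against the rest of its gene. In silencing 39 bins of 4 genes were tested and 0 were called by edgeR, where 0.0012% of 83164 bins were. At an unadjusted p under 0.05 stood 0 of the 39, against 1.96% of all bins tested. The smallest p was that of Slc1a2 bin 033, with 2.28% ± 1.41 of the gene's counts in libraries labelled Ptbp1 shRNA and 1.07% ± 0.775 with scrambled shRNA (edgeR adjusted p = 1.00). In overexpression 72 bins of 7 genes were tested and 0 were called, where 0.034% of 117580 bins were. At an unadjusted p under 0.05 stood 0 of the 72, against 1.37% of all bins tested. Slc1a2 bin 001, in the 5′ UTR, came first with 0.788% ± 0.145 of the gene's counts with Ptbp1 overexpression and 0.566% ± 0.171 with the control vector (edgeR adjusted p = 1.00). With limma voom and diffSplice 0 bins of the astrocyte genes were called in either experiment, where 8 of 83164 bins were in silencing and 59 of 117580 in overexpression. At an unadjusted p under 0.05 the silencing result depended on the setting. It held for 3 of the 39 bins with limma voom and for 1 of 51 in edgeR with bins averaging at least 10 counts. With libraries left out in turn it held in edgeR for 0 to 4 bins, of 33 to 48 tested. The share of all bins at that level was not computed for these settings, so these counts cannot be set against a background.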

How the data were processed

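RNA from 18 TRAP libraries was analysed from the authors' deposited tables. The deposited gene and exon-bin counts are unnormalized whole numbers. STAR 2.5.3a, HTSeq and the build mm10 are named in the submitters' processing notes. Annotation release and strand setting: not given in the sources used here. All 5 total lines of each exon file were left out. Bin coordinates were rebuilt from GENCODE M21. Bin numbers match for 9 of the 10 genes, Glul being the exception with 15 bins rebuilt and 14 deposited.

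Each experiment was fitted alone in R 4.3.3 with edgeR 4.0.16 (filterByExpr, TMM, robust quasi-likelihood F test, Benjamini-Hochberg at 0.05), and contrasts across experiments over all 18 libraries. CPM use TMM-scaled library sizes. SE is the size of the log2 fold change over the square root of F. DESeq2 1.42.0, limma 3.58.1 voom, other scalings, no filter and leaving out each library were alternatives. Exon usage was tested with diffSpliceDGE. The code was tested on simulated counts.

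The members and gene lists were chosen with earlier results of these data known. Named are the 10 genes, Ptbp1, called genes of each list or else up to 3 with the smallest p, up to 2 exon bins per experiment, and the 5 genes most like the members' mean. Labels do not say whether libraries share a litter or day, so p-values measure the spread between these mice. Counts without molecular identifiers carry amplification noise, and the counting interval covers counting error only. Replicate numbers follow accession order and pair nothing.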

Additional observations from a re-analysis of the deposited data

Results flagged for a closer look

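In groups of 4 or 5 libraries, a gene's highest or lowest CPM was set apart where its gap to the nearest other library, relative to the whole range, passed Dixon's critical value. This held for 6 of 44 sets of values. The value assumes normal data and by chance passes in about 5% of such sets, while CPM are skewed and often 0, so the number of sets carries no weight. Aldh1l1 was at 2.33 CPM in Ptbp1 shRNA replicate 1, against 0 to 0.112 CPM in the other libraries of that label. Aldh1l1 was at 0.0260 CPM, a single count, in scrambled replicate 1, against 0 in the others. Aldoc was at 21.8 CPM in Ptbp1 shRNA replicate 2, against 1.82 to 4.56 CPM in the others. Atp1b2 was at 183 CPM in the same library, against 77.6 to 85.2 CPM in the others. Gja1 was at 7.20 CPM in scrambled replicate 2, against 0 to 1.33 CPM in the others. S100b was at 27.1 CPM in Ptbp1 overexpression replicate 1, against 13.6 to 16.2 CPM in the others.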

How the results depend on the processing

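No paired analysis was possible because the replicate numbers follow accession order and no mouse number is shared between the groups of an experiment. The count of silencing genes called among the 10 was 1 with DESeq2, 1 with limma voom and quality weights and 2 when all 18 libraries shared 1 spread (Atp1b2 and Aldh1l1), a setting that called 1775 of 17779 genes. Aldh1l1 had 110 of its silencing counts in Ptbp1 shRNA replicate 1. In silencing the count ranged from 0 to 1 when libraries were left out in turn, 1 being Atp1b2 without Ptbp1 shRNA replicate 2. That run called 1 of 15281 genes. For the difference of responses the count was 1 with DESeq2, 0 to 1 with libraries left out in turn and 1 without the 2 least even libraries. Of all genes, 667 of 17779 were called there with DESeq2, 124 of 18220 without Ptbp1 shRNA replicate 2 and 275 of 18182 without the 2 least even libraries. The main fit of the difference called 40. The count among the 10 was 0 in overexpression under each alternative run, and 4 between scrambled shRNA and control vector except with library size as the sole scaling, where it was 3. Exon bins of the 10 genes called were 0 throughout. The summed level of the 10 genes differed by -499.6 CPM in silencing and by -204 CPM without Slc1a2, and in overexpression by -74.7 CPM and 13.4 CPM without Slc1a2. Ptbp1 in silencing ranged from -0.93 to 0.57 on the log2 scale with libraries left out, positive without Ptbp1 shRNA replicate 2 (0.57) or 3 (0.28) and scrambled replicate 3 (0.12) or 5 (0.22).

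Fold changes changed sign in 9 pairs of gene and setting in silencing, 9 in overexpression, 8 for the difference and 8 for scrambled shRNA over control vector, none of them called. In silencing, Aqp4 was -0.091 and Aldoc -0.42 with limma voom, and Aldoc was -0.88 without the 2 least even libraries. With libraries left out in turn, Aqp4 ranged from -0.93 to 0.61, Slc1a3 from -1.93 to 0.041, Aldoc from -0.86 to 0.78 and Glul from -0.38 to 0.032. In overexpression, Atp1b2 ranged from -0.23 to 0.0021, Aqp4 from -0.50 to 0.052, Slc1a3 from -0.24 to 0.063, Aldh1l1 from -0.32 to 0.66, Aldoc from -0.0049 to 0.34 and Glul from -0.048 to 0.27. For the difference of responses, Gfap ranged from -0.48 to 0.36, Aqp4 from -0.87 to 0.68, Slc1a3 from -0.16 to 1.81 and Aldoc from -0.55 to 1.08, with 1.11 for Aldoc without the 2 least even libraries. For scrambled shRNA over control vector, Slc1a3 ranged from -0.29 to 0.80, Gja1 from -1.64 to 0.37 and Glul from -0.071 to 0.25, and library size as the sole scaling gave -0.027 for Slc1a3, -0.46 for Gja1 and -0.46 for Glul. The alternative without the least even libraries was chosen after seeing the data. The causes of these changes were not tested.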
